A study of Gallus gallus with 12 samples.

Results

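Red blood cell genes were followed in the maxillary prominence of the chicken embryo, the part of the face that gives rise to the lateral upper beak, after bead implants that blocked BMP signalling, added retinoic acid, or did both. The genes were SLC4A1, ANK1, HBAD, HBBR, HEMGN, TAL1 and GATA1, and every probe set to which the platform annotation gives one of these 7 symbols was described. In all, 18 probe sets carried a member symbol, among 37693 chicken probe sets. Of these 18, 17 named a single member and 1 named HBBR together with HBBA, a neighbouring beta-type globin gene. A total of 10 passed the filter on low values (above the median of their own array on at least 3 of 12 arrays) and were tested, and they covered 6 of the 7 genes, out of 10158 genes with a tested probe set of their own. GATA1 was not analysed here, since no probe set in the annotation carried its symbol.

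The 4 groups of 3 arrays were Noggin+RA, Noggin+DMSO, Tris+RA and the control Tris+DMSO, and each array held a pool of 12 to 15 maxillary pieces. Noggin is a secreted protein that binds BMP ligands, Tris is its buffer, RA is retinoic acid, and DMSO is the solvent of RA. Every embryo, controls included, had received 2 beads at Hamburger-Hamilton stage 15 (25 somites). A 200 µm bead carried Noggin or Tris and a 100 µm bead carried RA or DMSO, with Noggin and RA each at 1 mg/ml. Embryos were collected 16 h after the implant at stage 18. Pools mix embryos and all cell types of the piece.

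Red blood cells of birds keep their nucleus and their RNA while they circulate, so a piece of embryonic tissue carries red cell transcripts in the blood of its vessels. The first red cells of the embryo arise in the blood islands of the yolk sac. Their development runs through transcription factors such as GATA1 and TAL1, and maturing cells fill with globin, make haem, take up iron and build a membrane in which the anion exchanger band 3 is tied to a spectrin skeleton by ankyrin. In tissue RNA, fewer red cells and less RNA per red cell cannot be told apart.

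Facial mesenchyme, the main tissue of the prominence, was represented by 10 tested genes of a list of 12. The collagen gene COL1A2 averaged 2246 ± 224 in Noggin+RA, 2614 ± 131 in Noggin+DMSO, 1751 ± 457 in Tris+RA, against 2578 ± 446 in Tris+DMSO (deposited intensity, mean ± SD, n = 3 arrays each). It is the brightest gene of the list, whose median log2 difference between Noggin+DMSO and Tris+DMSO was -0.41. Of the 10 genes limma called 3 lower, beside 4.95% of all 21354 tested probe sets called either way. Median intensity was 42.8 ± 2.47 on the 6 Noggin arrays and 37.1 ± 2.13 on the 6 Tris arrays. The GAPDH control probe sets give a ratio of 5′ over 3′ signal, a measure of RNA completeness and label length. It lay between 0.619 and 0.736 on Noggin arrays and between 0.784 and 0.849 on Tris arrays, so the Noggin and Tris arrays did not overlap. The background level of an array, the 95th percentile of probe sets for other organisms, was 31.1 to 49.0.

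SLC4A1 encodes band 3, the anion exchanger of the red cell membrane. Its probe set read 730.2, 243 and 241.5 in Noggin+RA, 558.5, 846.2 and 1150.2 in Noggin+DMSO, 479.3, 153.7 and 222.2 in Tris+RA, against 149.8, 189.1 and 55.2 in Tris+DMSO. All 3 Noggin+DMSO arrays lay above all 3 Tris+DMSO arrays, and so did all 3 Noggin+RA arrays. In each RA group 1 array (replicate 1) stood far above the others. In Noggin+DMSO against Tris+DMSO, SLC4A1 rose 6.20-fold (log2 2.63, SE 0.522, limma adjusted p = 0.0183). Against the same control it was higher by 1.45 on the log2 scale in Noggin+RA (SE 0.522, adjusted p = 0.226) and by 1.02 in Tris+RA (SE 0.522, adjusted p = 0.843), and neither passed the test.

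ANK1 encodes the ankyrin that anchors band 3 to spectrin, and its probe sets disagreed. The brightest, Gga.3059.1.S1_at, read 222.4, 72.2 and 103.4 in Noggin+RA, 268.2, 299.9 and 392.4 in Noggin+DMSO, 194.3, 54.9 and 86.5 in Tris+RA, against 79.4, 82.2 and 45.6 in Tris+DMSO. It rose 3.99-fold in Noggin+DMSO against Tris+DMSO (SE 0.407 on the log2 scale, adjusted p = 0.0209), with no overlap between the arrays of these groups. Gga.757.1.S1_at averaged 72.9 ± 12.5 in Noggin+RA, 74.1 ± 11.2 in Noggin+DMSO, 59.2 ± 25.1 in Tris+RA, against 55.8 ± 15.1 in Tris+DMSO, and its difference between Noggin+DMSO and Tris+DMSO was 0.34 on the log2 scale (SE 0.223, adjusted p = 0.365). GgaAffx.2239.1.S1_at averaged 71.5 ± 37.1 in Noggin+RA, 33.8 ± 3.71 in Noggin+DMSO (below background on all 3 arrays), 35.5 ± 10.03 in Tris+RA, against 53.4 ± 17.3 in Tris+DMSO. Noggin+RA was its highest group, with 31.3, 78.7 and 104.5 on its arrays. Its log2 difference between Noggin+DMSO and Tris+DMSO was -0.45 (SE 0.301, adjusted p = 0.380). It was above background on 6 of 12 arrays. The other 4 ANK1 probe sets were dim, with means of 7.14 to 27.0, and were not tested. Averaged over all 7 ANK1 probe sets, the log2 difference was 0.38, so the ANK1 result rests on 1 probe set.

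**Figure D1:**
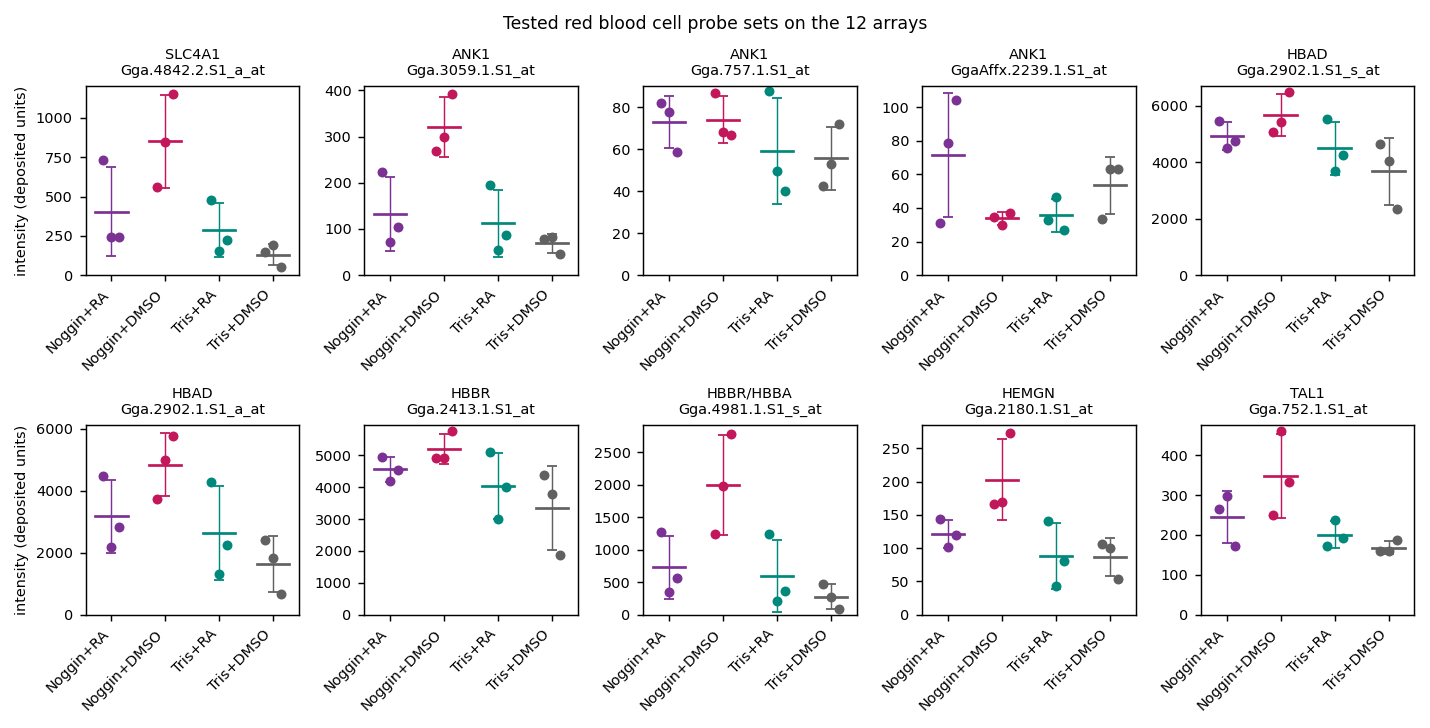
Deposited intensity (linear axes from 0) of the 10 tested red blood cell probe sets; each point is 1 array, each line a group mean and each bar ± SD (n = 3 arrays). The 3 Noggin+DMSO arrays lie above the 3 Tris+DMSO arrays for 8 of the 10 probe sets, and for SLC4A1 they reach 1150.2 against at most 189.1 in Tris+DMSO.

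Among the globins, HBAD encodes the alpha-D chain and HBBR the rho chain, a beta-type chain of embryonic red cells. The HBAD probe set Gga.2902.1.S1_s_at read 5467.6, 4512.4 and 4770.7 in Noggin+RA, 5073.7, 5416.6 and 6505.3 in Noggin+DMSO, 5530.1, 3696 and 4249.8 in Tris+RA, against 4651, 4038.4 and 2336.9 in Tris+DMSO. Its log2 difference between Noggin+DMSO and Tris+DMSO was 0.67 (SE 0.233, adjusted p = 0.109), which did not pass, although the arrays did not overlap. The second HBAD probe set, Gga.2902.1.S1_a_at, averaged 3165 ± 1185 in Noggin+RA, 4836 ± 1024 in Noggin+DMSO, 2620 ± 1519 in Tris+RA, against 1629 ± 898 in Tris+DMSO. Its log2 difference in the same comparison was 1.73 (SE 0.491, adjusted p = 0.0631), also not called. The third HBAD probe set lay between 4.16 and 8.80 on all 12 arrays, below background, and was not tested. HBBR by its own probe set read 4962.4, 4191.7 and 4533.2 in Noggin+RA, 4917.2, 4923.1 and 5759 in Noggin+DMSO, 5105.1, 3006.4 and 4005.8 in Tris+RA, against 4381.5, 3777.4 and 1866.8 in Tris+DMSO. Its Noggin+DMSO arrays lay above its Tris+DMSO arrays, with a log2 difference of 0.72 (SE 0.276, adjusted p = 0.136).

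The probe set shared by HBBR and HBBA, whose signal cannot be assigned to either gene, had the widest range of the 10 tested. It read 1275.7, 347.8 and 560.4 in Noggin+RA, 1241.4, 1983.8 and 2782.8 in Noggin+DMSO, 1233.6, 201.9 and 356 in Tris+RA, against 476.4, 262.1 and 88.2 in Tris+DMSO. It rose 7.90-fold in Noggin+DMSO against Tris+DMSO (log2 2.98, SE 0.693, adjusted p = 0.0336). In the RefSeq gene order, HBAD lies between the alpha-type genes HBZ and HBA1, and HBBR follows HBE, HBBA and HBE1, so each stands in its globin cluster.

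Beside the 4 tested globin probe sets of members, 5 other globin probe sets were tested. Those of HBZ and HBE and both of HBA1 had log2 differences of 0.21 to 0.74 between Noggin+DMSO and Tris+DMSO, none called by limma, and a highest array of 1.81 to 2.56 times the lowest. One shared by HBE1 and HBBA had a highest array of 9.95 times the lowest and a log2 difference of 1.46 (SE 0.352, adjusted p = 0.0388). For the members this ratio of arrays was 2.78 (HBAD Gga.2902.1.S1_s_at), 8.88 (HBAD Gga.2902.1.S1_a_at), 3.08 (HBBR) and 31.6 (HBBR with HBBA). As a mean share of the highest intensity of the array, HBAD Gga.2902.1.S1_s_at stood at 62.4%, HBAD Gga.2902.1.S1_a_at at 40.7%, HBBR at 57.0% and HBBR with HBBA at 12.0%. The part of signal saturation in the globin values was not tested.

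HEMGN and TAL1 encode nuclear proteins of the blood line. HEMGN (hemogen) is a nuclear protein of blood-forming cells. Its probe set read 143.4, 101.2 and 119.7 in Noggin+RA, 166, 169.6 and 273.5 in Noggin+DMSO, 141.1, 42.4 and 80.5 in Tris+RA, against 106, 99.4 and 54.1 in Tris+DMSO. Noggin+DMSO and Tris+DMSO did not overlap, and the log2 difference of 1.10 (SE 0.331, adjusted p = 0.0738) did not pass. In Tris+RA against Tris+DMSO it was -0.052 (SE 0.331, adjusted p = 0.996).

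TAL1, a basic helix-loop-helix factor needed for blood formation and also active in endothelium, read 265.9, 298 and 172.2 in Noggin+RA, 249.1, 460.4 and 333.8 in Noggin+DMSO, 171.7, 238.1 and 192.1 in Tris+RA, against 158.5, 158.9 and 186.5 in Tris+DMSO by Gga.752.1.S1_at. It rose 1.93-fold in Noggin+DMSO against Tris+DMSO (log2 0.95, SE 0.228, adjusted p = 0.0387), with no overlap. The other 3 TAL1 probe sets were dim and untested. The brightest of them, Gga.6758.1.S1_at, read 38.6, 22.0 and 24.4 in Noggin+RA, 43.7, 46.6 and 52.4 in Noggin+DMSO, 35.2, 16.1 and 21.9 in Tris+RA, against 18.6, 29.0 and 22.1 in Tris+DMSO. Only its 3 Noggin+DMSO arrays and 1 Tris+RA array were above background.

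In Noggin+DMSO against Tris+DMSO, limma thus called 4 of the 10 tested member probe sets (those of SLC4A1, ANK1, TAL1 and HBBR with HBBA), all higher, where 2.97% of the 21354 tested probe sets were called higher and 4.95% were called either way. For 8 of the 10, all Noggin+DMSO arrays exceeded all Tris+DMSO arrays, a pattern shown by 17.4% of all tested probe sets. The members' median log2 difference was 1.02, against 0.063 over all tested probe sets, and 9 of 10 were positive. Members were chosen with earlier results of these data known, and most varied together, so these shares are a description. Of the 10, 9 were above the median of their array on all 12 arrays, and ANK1 GgaAffx.2239.1.S1_at was so on 5.

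These calls depended on single arrays, while the differences kept their direction. Noggin+DMSO replicate 3 was the highest of the 12 arrays for 7 of the 10 probe sets, and Tris+DMSO replicate 3 the lowest for 6. Without Noggin+DMSO replicate 2 no member was called, beside 2.29% of all probe sets, and without Noggin+DMSO replicate 3 likewise none, beside 1.21%. Without Tris+DMSO replicate 3 the count was 1 (SLC4A1) beside 3.76%, and without Tris+DMSO replicate 1 or replicate 2 it was 2, beside 2.15% and 2.51%. With any 1 of the 12 arrays left out, the log2 difference lay between 2.18 and 2.94 for SLC4A1, 1.78 and 2.12 for ANK1 Gga.3059.1.S1_at, 2.37 and 3.49 for HBBR with HBBA, and 0.73 and 1.15 for TAL1. The GAPDH 5′ to 3′ ratio was 0.669 ± 0.0440 in Noggin+DMSO and 0.824 ± 0.0139 in Tris+DMSO (SD, n = 3), and with this ratio as a covariate neither a member nor any of the 21354 probe sets was called. The log2 difference of SLC4A1 was then 1.36 (SE 1.24, adjusted p = 0.852) and that of TAL1 0.80 (SE 0.571, adjusted p = 0.806). Ratio and Noggin moved together, so their parts cannot be told apart.

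**Figure D2:**
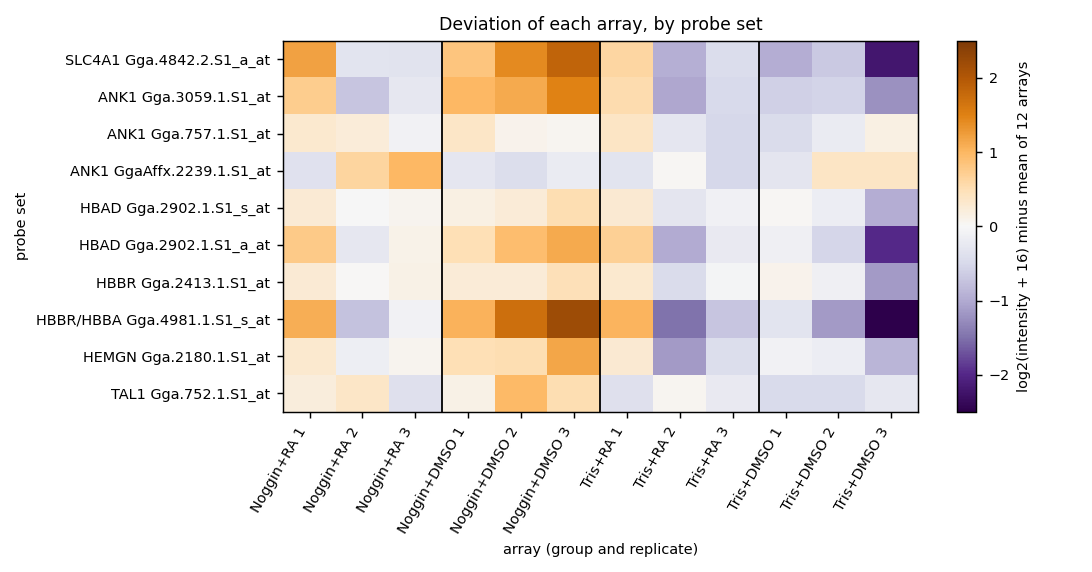
Deviation of each array (columns, by group and replicate) from the mean of the 12 arrays on the log2(intensity + 16) scale, for the 10 tested probe sets (rows); orange is above and purple below the mean. Noggin+DMSO replicate 3 is the highest array in 7 rows and Tris+DMSO replicate 3 the lowest in 6.

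With RA the median differences of the members were smaller than the 1.02 of Noggin+DMSO against Tris+DMSO, and no member passed. In Noggin+RA against Tris+DMSO, limma called 0 of 10 member probe sets, beside 0.81% of all probe sets, with 2 members at an unadjusted p below 0.05. All 10 differences were positive, with a median of 0.51 on the log2 scale against 0.038 over all probe sets. In Tris+RA against Tris+DMSO it called 0 members and 0.0% of all probe sets, with 0 members at an unadjusted p below 0.05 and a median of 0.33 against -0.0099 over all. These 3 comparisons share the Tris+DMSO arrays. Noggin+RA against Tris+RA gave 0 called members beside 0.215% of all probe sets, 1 unadjusted p below 0.05, and a median of 0.33. That member was ANK1 GgaAffx.2239.1.S1_at, with a log2 difference of 0.68 (SE 0.301, unadjusted p = 0.0447, adjusted p = 0.352 by limma).

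Noggin+RA against Noggin+DMSO asked what RA did where Noggin was present. Of the 10 member probe sets 9 were lower, with a median of -0.56, and 0 were called by limma beside 0.445% of all probe sets, although 4 had an unadjusted p below 0.05. The lowest adjusted p was 0.289, for ANK1 Gga.3059.1.S1_at, which averaged 133 ± 79.2 in Noggin+RA and 320 ± 64.5 in Noggin+DMSO (log2 -1.29, SE 0.407). The interaction subtracts the RA effect without Noggin from the RA effect with it, and was negative for 9 of 10 with a median of -0.65. No member passed the interaction test, as was so for all probe sets (0.0% called), and 4 members had an unadjusted p below 0.05. For SLC4A1 the interaction was -2.20 on the log2 scale (SE 0.738, adjusted p = 0.702).

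Averaged over both RA states, 6 Noggin arrays against 6 Tris arrays, limma called 5 member probe sets, all higher, where 6.77% of all probe sets were called higher and 11.2% either way. They were SLC4A1 (log2 1.54, SE 0.369, adjusted p = 0.0257), ANK1 Gga.3059.1.S1_at (1.12, SE 0.288, adjusted p = 0.0317), TAL1 (0.60, SE 0.161, adjusted p = 0.0379), the HBBR and HBBA probe set (1.73, SE 0.490, adjusted p = 0.0444) and HEMGN (0.80, SE 0.234, adjusted p = 0.0477). Without Noggin+DMSO replicate 3 or Tris+RA replicate 3, 0 were called, beside 5.203% and 6.29% of all probe sets, and with the GAPDH ratio as a covariate 0 were called beside 0.0%. Without Noggin+RA replicate 1, Noggin+DMSO replicate 2 or Tris+RA replicate 2 the count was 1, beside 8.003%, 8.397% and 6.52%. It was 2 without Noggin+RA replicate 3 (beside 5.05%) or Tris+DMSO replicate 1, 2 or 3 (beside 6.94%, 9.42% and 10.9%). It was 3 without Noggin+RA replicate 2 or Noggin+DMSO replicate 1, beside 7.99% and 7.24%, and 5 without Tris+RA replicate 1, beside 9.65%. The average RA effect, 6 RA arrays against 6 DMSO arrays, gave 0 called members beside 0.82% of all probe sets, 0 with an unadjusted p below 0.05, and 5 differences in each direction.

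**Figure D3:**
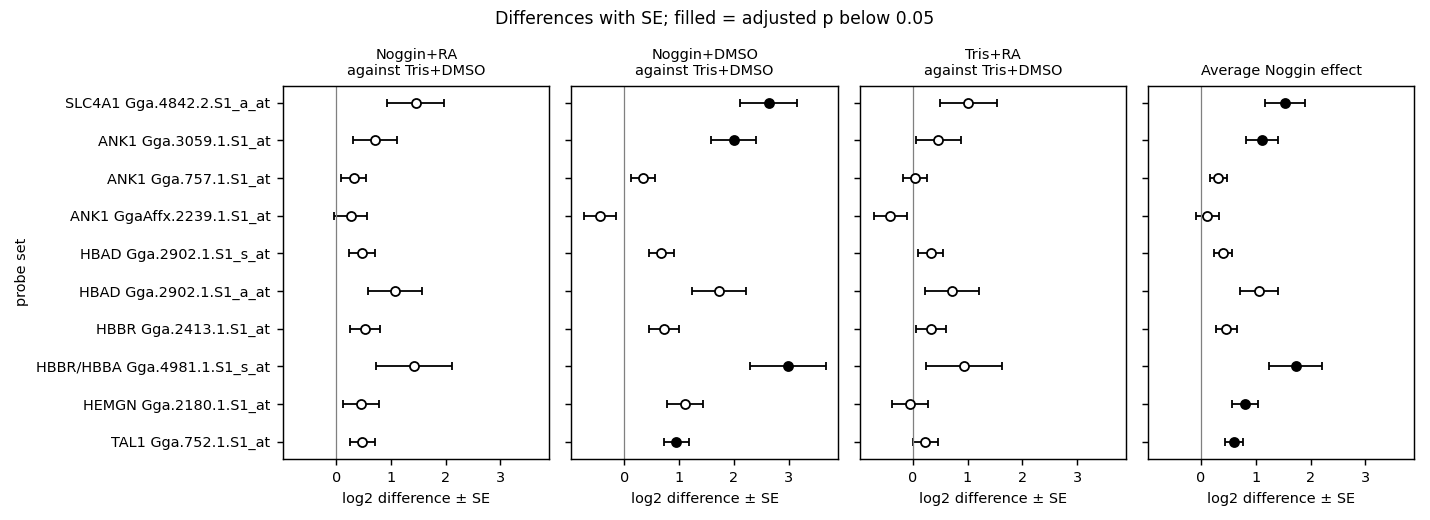
Log2 difference ± SE of the 10 tested probe sets in Noggin+RA, Noggin+DMSO and Tris+RA, each against Tris+DMSO, and in the average Noggin effect (6 arrays against 6); filled points have an adjusted p below 0.05. Filled points number 4 for Noggin+DMSO and 5 for the average Noggin effect, with none for Noggin+RA or Tris+RA.

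Group means of log2(intensity + 16) came in the same order for 8 of the 10 probe sets, with Noggin+DMSO highest, then Noggin+RA, Tris+RA and Tris+DMSO. The exceptions were ANK1 GgaAffx.2239.1.S1_at and HEMGN, which was lowest in Tris+RA on that scale and lowest in Tris+DMSO by mean intensity (88.0 ± 49.8 in Tris+RA, against 86.5 ± 28.2 in Tris+DMSO). For SLC4A1 the mean intensities were 405 ± 282 in Noggin+RA, 852 ± 296 in Noggin+DMSO, 285 ± 172 in Tris+RA, against 131 ± 68.8 in Tris+DMSO, and limma called none of the steps between neighbours in this order (adjusted p = 0.515, 0.753 and 0.843 for SLC4A1).

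Most member genes varied together from array to array. HBAD (Gga.2902.1.S1_s_at) and HBBR had Pearson r = 0.988 and Spearman rho = 1.0 over 12 arrays (permutation p = 1e-05 for both, the smallest that the permutations can give, adjusted p = 3.7e-05 and 0.000112 over 45 pairs), and r = 0.964 without the 2 arrays farthest from the median of HBAD. Between ANK1 Gga.3059.1.S1_at and SLC4A1, r was 0.960 and rho 0.909 (permutation p = 1e-05 and 0.00014, adjusted p = 3.7e-05 and 0.00045), and r = 0.931 without the 2 farthest arrays. The HBAD probe sets Gga.2902.1.S1_s_at and Gga.2902.1.S1_a_at had r = 0.976 and rho = 0.965 (permutation p = 1e-05 for both, adjusted p = 3.7e-05 and 0.000112), and r = 0.980 without the 2 farthest. Both carry the same cluster number in their names and the same symbol, so this pair does not bear on whether genes vary together. The arrays fall into 4 groups and all pairs share labelling and hybridisation. With the group means removed, these 3 values of r were 0.982, 0.936 and 0.962.

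The pairs without ANK1 Gga.757.1.S1_at and GgaAffx.2239.1.S1_at, 28 of the 45, had r between 0.34 and 0.99, and 22 of them had an adjusted p below 0.05 by permutation. The 17 pairs with one of those ANK1 probe sets had r between -0.51 and 0.50, and 0 had such a p. ANK1 Gga.3059.1.S1_at correlated with these other tested ANK1 probe sets at 0.50 and -0.51, against 0.960 with SLC4A1. The dim, untested ANK1 probe sets were set against the mean of the other 5 member genes. With group means removed, r was 0.86 for GgaAffx.2226.1.S1_at, 0.68 for GgaAffx.2239.3.S1_s_at, 0.28 for GgaAffx.2239.4.S1_s_at and -0.24 for GgaAffx.2239.1.S1_s_at. Over the 12 arrays these values were 0.38, 0.64, 0.58 and 0.09.

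By its tested probe set, Gga.752.1.S1_at, TAL1 stood apart from the other members within groups. Its highest r with another tested probe set was that with SLC4A1, 0.656, with rho 0.720 over the 12 arrays (permutation p = 0.0203 and 0.0108, adjusted p = 0.0416 and 0.0222). Without the 2 arrays farthest from the median this r was 0.629, and with group means removed -0.031. With HEMGN, ANK1 Gga.3059.1.S1_at and the tested globin probe sets of members, r was 0.34 to 0.59 over the 12 arrays. The adjusted permutation p of those r was 0.0854 to 0.328. Against the mean of the other 5 member genes, TAL1 Gga.752.1.S1_at had r = 0.56, and -0.24 with group means removed, while the other members, by their brightest probe sets, had r = 0.82 to 0.96 with group means removed. The dim TAL1 probe set Gga.6758.1.S1_at had r = 0.88, and 0.77 with group means removed. For the dimmer Gga.6758.1.S1_s_at these values were 0.76 and 0.42, and for Gga.6758.2.A1_at 0.57 and -0.16. These r within groups thus differed between TAL1 probe sets. Gga.6758.1.S1_at was above background on 4 of 12 arrays and the dimmer ones on 0, which limits what their r can show.

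**Figure D4:**
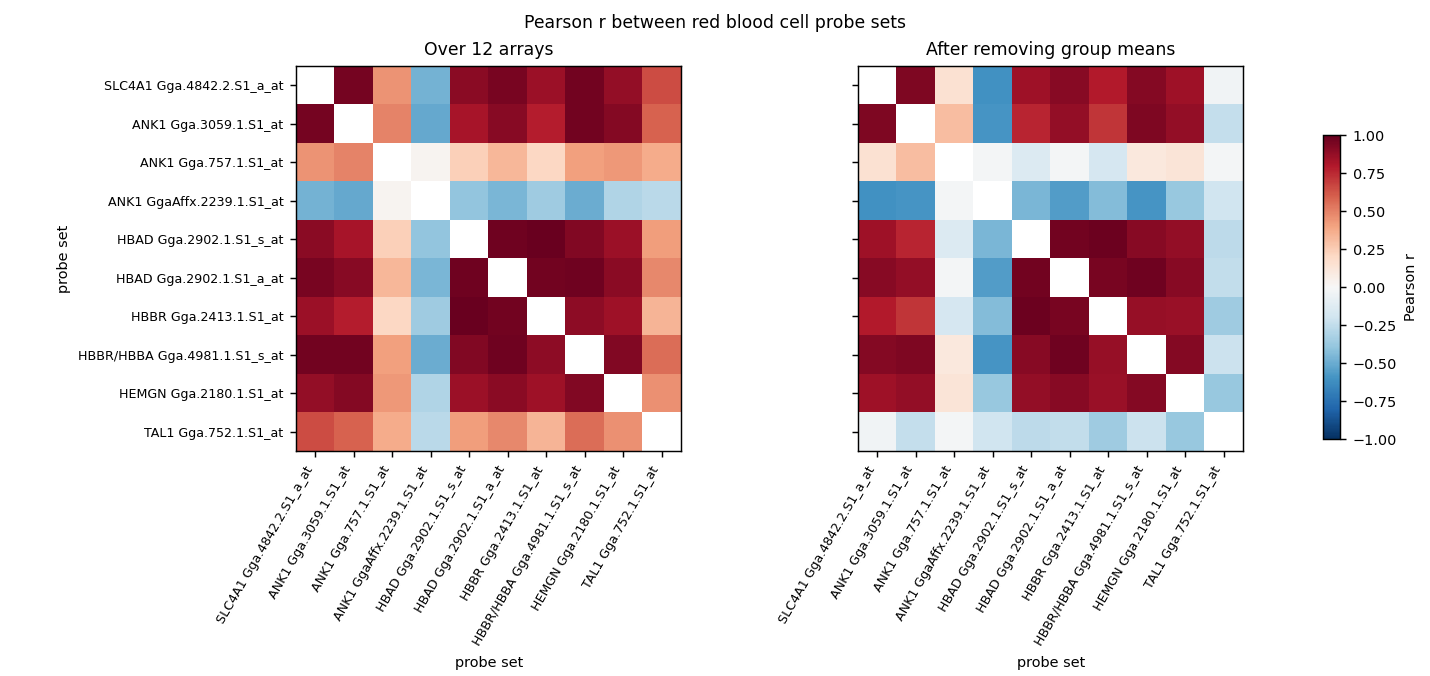
Pearson r between the 10 tested probe sets on the log2(intensity + 16) scale, over the 12 arrays (left) and after group means were subtracted (right); red is positive, blue negative. The rows of ANK1 Gga.757.1.S1_at and GgaAffx.2239.1.S1_at are light red, pale or blue in both panels (r at most 0.50 on the left), and the TAL1 row is positive on the left apart from GgaAffx.2239.1.S1_at and pale or blue on the right.

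Genes outside the members with the array pattern most like the members' mean deviation were sought among 9782 genes. Over the 12 arrays the 10 highest were SLC43A3 (r = 0.975), a nucleobase transporter, EPB42 (0.975), which encodes a protein of the red cell membrane skeleton, ABCB10 (0.966), a mitochondrial transporter of red cells, PON1 (0.966), a paraoxonase, CPOX (0.964), an enzyme of haem synthesis, TSPO2 (0.962), a relative of the translocator protein in red cells, SLC25A37 (0.961), the mitochondrial iron carrier mitoferrin, TFRC (0.960), the transferrin receptor, TUBB1 (0.960), a beta-tubulin of thrombocytes and of avian red cells, and PLS1 (0.960), an actin bundler. A total of 58 genes had r above 0.9, and the median over all genes was 0.058. With group means removed the 5 highest were PON1 (0.997), CPOX (0.981), LGALSL2 (0.978), EPB42 (0.977) and ABCB10 (0.975).

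PON1 averaged 173 ± 76.3 in Noggin+RA, 438 ± 129.98 in Noggin+DMSO, 166 ± 84.9 in Tris+RA, against 133 ± 59.4 in Tris+DMSO. Since it was chosen for following the members over these arrays, its group means are a description.

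Other genes of the red cell programme were counted from lists, by the brightest probe set of each gene and leaving out the members. These counts stand beside the 2.97% of all tested probe sets called higher in Noggin+DMSO against Tris+DMSO. The lists, too, were chosen with earlier results of these data known. Of 11 tested genes of the haem synthesis and iron list, 4 were called higher and 0 lower in Noggin+DMSO against Tris+DMSO. All 11 differences were positive, that of HMOX1, a gene of haem breakdown, included. The median was 0.97 on the log2 scale. TFRC, which brings iron into the cell, read 1623, 2415 and 3311 in Noggin+DMSO against 838, 1096 and 705 in Tris+DMSO and rose 2.68-fold (SE 0.319 on the log2 scale, adjusted p = 0.0290). ABCB10 rose 2.54-fold (adjusted p = 0.0483), STEAP3, a ferric reductase of endosomes, 2.33-fold (adjusted p = 0.0413), and SLC25A38, a mitochondrial glycine carrier, 1.58-fold (adjusted p = 0.0390). The brightest gene of the list, CPOX, had a log2 difference of 0.95 (adjusted p = 0.0771).

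Of 6 tested red cell transcription factor genes other than the members, 1 was called, GFI1B, a zinc finger repressor of red cells and megakaryocytes. It read 78.6 to 140.01 on the Noggin+DMSO arrays and between 31.9 and 39.0 on the Tris+DMSO arrays (2.44-fold, adjusted p = 0.0392). Its Tris+DMSO values lay near background, above it on 2 of those 3 arrays, so the fold starts near the floor. LMO2, the bridging factor that binds TAL1, had a log2 difference of 0.88 (SE 0.239, adjusted p = 0.0558). BCL11A, the next brightest of this list, went the other way, at -0.60 (SE 0.228, adjusted p = 0.134 by limma). The median of the 6 genes was 0.24, and 5 differences were positive. Among 9 other membrane and skeleton genes, only RHCE, a Rh blood group protein, was called, and it rose 1.63-fold (adjusted p = 0.0433). EPB42 was at 1.69 on the log2 scale without passing (SE 0.491, adjusted p = 0.0665), and EPB41, the brightest of the list, at -0.011. Of 8 remaining red cell genes 1 was called, KIT, the receptor of stem cell factor, which rose 2.14-fold (adjusted p = 0.0419). KIT averaged 194 ± 65.4 in Noggin+RA, 197 ± 13.1 in Noggin+DMSO, 97.1 ± 21.1 in Tris+RA, against 87.7 ± 36.3 in Tris+DMSO. TSPO2, the brightest of this list, was at 1.88 on the log2 scale without passing (SE 0.568, adjusted p = 0.0754 by limma). CAT, the next brightest, averaged 768 ± 16.0 in Noggin+DMSO against 894 ± 141 in Tris+DMSO. The list median was 0.035, and 4 of 8 differences were positive. The 3 other tested globin genes gave 0 calls.

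**Figure D5:**
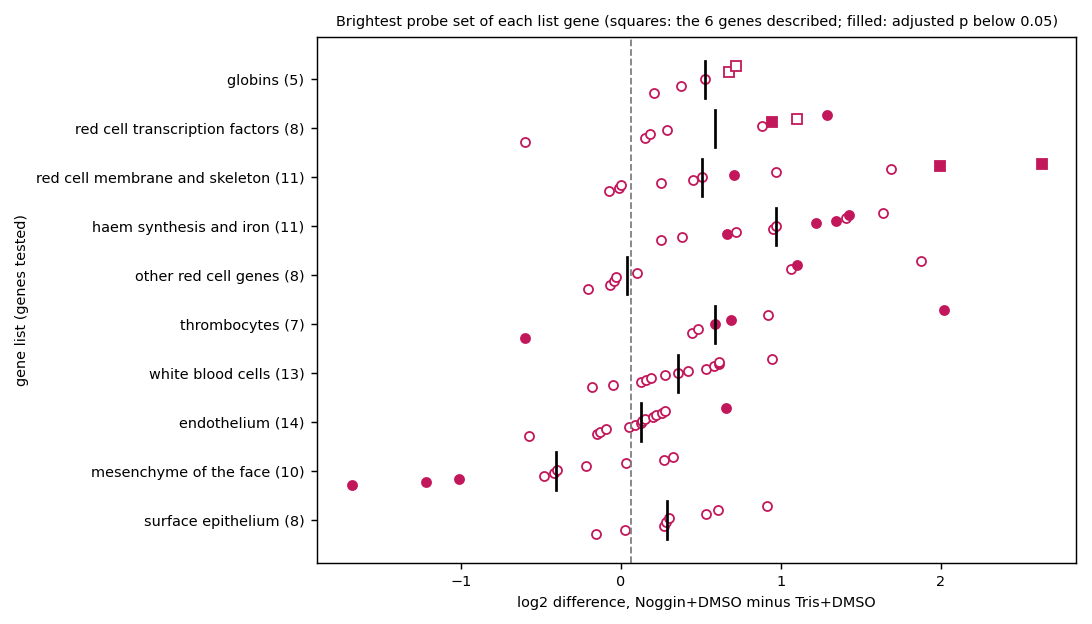
Log2 difference between Noggin+DMSO and Tris+DMSO for the brightest probe set of each tested list gene (points; squares are member genes; filled where the adjusted p was below 0.05), with the median of each list (vertical bar) and of all probe sets (dashed line, 0.063). Genes of the haem synthesis and iron list lie right of 0 throughout, and the mesenchyme list holds 3 filled points below 0.

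Markers of other cells were counted in the same way, beside 2.97% of all tested probe sets called higher and 4.95% called either way. Of 7 thrombocyte genes, 3 were called higher and 1 lower in Noggin+DMSO against Tris+DMSO. Of the 7 differences 6 were positive, and the list median was 0.59. TUBB1, also a tubulin of avian red cells, rose 4.05-fold (adjusted p = 0.0485). ITGB3, the integrin of thrombocytes, rose by 0.59 on the log2 scale (adjusted p = 0.0463), while FLI1, an ETS factor, fell by 0.60 on the log2 scale (adjusted p = 0.0321). PLEK, the third called higher (adjusted p = 0.0370), averaged 48.4 in Noggin+DMSO and was below background on all 3 Tris+DMSO arrays. Of 13 white blood cell genes 1 was called, CD74, the invariant chain of antigen presentation (1.53-fold, adjusted p = 0.0179), and the list median was 0.35. The summed intensity of this list was 1651 to 2297 in Noggin+RA, 2734 to 3471 in Noggin+DMSO, 1742 to 2142 in Tris+RA, against 1892 to 2617 in Tris+DMSO.

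Of 14 endothelial genes 1 was called, VWF, the von Willebrand factor (1.58-fold, adjusted p = 0.0319), and the median was 0.13. CDH5, the cadherin of endothelial junctions and the brightest of the list, had a log2 difference of -0.13 (adjusted p = 0.518). The summed intensity of the endothelial list was 2687 to 3133 in Noggin+RA, 2873 to 3110 in Noggin+DMSO, 2683 to 3030 in Tris+RA, against 2853 to 2992 in Tris+DMSO. For the haem and iron list the sums were 5893 to 11212 in Noggin+RA, 9160 to 15770 in Noggin+DMSO, 5463 to 10422 in Tris+RA, against 3968 to 6211 in Tris+DMSO. Of 10 facial mesenchyme genes 3 were called lower, PRRX1 (log2 -1.69), PRRX2 (-1.22) and the BMP target MSX1 (-1.01). Among the 10, 3 differences were positive, and the list median was -0.41. COL3A1 averaged 872 ± 70.6 in Noggin+DMSO against 701 ± 152 in Tris+DMSO, and PDGFRA 85.8 ± 13.3 against 68.3 ± 7.63. PRRX1 averaged 400 ± 50.8 in Noggin+DMSO against 1342 ± 334 in Tris+DMSO. The summed intensity of the mesenchyme list was 5684 to 5891 in Noggin+RA, 5013 to 5278 in Noggin+DMSO, 5313 to 5772 in Tris+RA, against 5966 to 7333 in Tris+DMSO. Of 8 surface epithelium genes 0 were called, while 7 differences were positive and the list median was 0.29. No gene of any list was at 0 on all arrays. The part of blood content, cell composition or dissection in the member results was not tested.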

How the data were processed

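RNA of 12 pools (500 ng each, two-cycle labelling) was hybridised to a 1-colour Affymetrix chicken array. The deposited values were probe set intensity on a linear scale. Their mean without the highest and lowest 2% was 150 on every array, which shows scaling of each array to 1 trimmed mean before deposit. The summarization software is not given in the sources used here. Probe sets were named from GEO's platform annotation, and member symbols matched the RefSeq gene table.

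Values were analysed as log2(intensity + 16) with limma 3.58.1 (R 4.3.3, lmFit and eBayes), 1 mean per group over 12 arrays, two-sided, with Benjamini-Hochberg adjustment over 21354 chicken probe sets and calls below 0.05. The fit was tested on simulated data. Folds are on the value + 16 scale. Correlations used 100000 permutations. Replicates were separate pools per the labels. Over the probe sets as a whole, same-numbered arrays did not deviate together (r -0.10 to 0.07 over 18 pairs), so numbers were not taken as pairs. Over the member probe sets alone, r was -0.82 to 0.94 for same-numbered arrays and -0.95 to 0.86 for arrays with different numbers. The number of arrays limits the precision. Named were every member probe set, list genes called or among the brightest, and genes most like the members by r. Members and lists were chosen with earlier results of these data known. Alternatives were other added constants, filters, normalizations, covariates, eBayes settings and samples. No sequences were used here.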

Additional observations from a re-analysis of the deposited data

How the results depend on the processing

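Counts of called member probe sets stayed at 0 under every alternative tried in 6 of the 8 comparisons, all but Noggin+DMSO against Tris+DMSO and the average Noggin effect. In Noggin+DMSO against Tris+DMSO the 4 calls stood beside 4.95% of all tested probe sets called either way. They became 6 with 64 added before log2 (beside 7.12%) and 6 with the filter at the 75th percentile (beside 13.1% of 10478). They were 3 with 1 added (4.01%), with median centring (8.61%) or with only the groups compared (2.49%). They were 2 with no filter on low values (1.79% of 37693) and 0 with the GAPDH 5′ to 3′ ratio as a covariate (0.0%). Leaving out 1 array gave 0 to 6 calls, beside 1.21% to 5.15%. In the average Noggin effect the 5 calls stood beside 11.2% of all tested probe sets called either way. The count became 6 with 64 added before log2 (beside 13.2%) and 6 with the filter at the 75th percentile (19.7% of 10478). It was 4 with trend and robust eBayes (13.03%). With 1 added (9.78%), quantile normalization (9.099%) or median centring (16.5%) the count was 3. It was 1 with no filter (4.52% of 37693) and 0 with the GAPDH covariate (0.0%). When 1 array was left out it ranged from 0 to 5, beside 5.05% to 10.9%. With the replicate number as a replicate block the counts were 4 and 4, beside 3.59% and 9.12%. Signs turned for small uncalled differences (log2). ANK1 GgaAffx.2239.1.S1_at ranged from -0.018 to 0.656 in Noggin+RA against Tris+DMSO when 1 array was left out, with the lowest value without Noggin+RA replicate 3. In the average Noggin effect it became -0.023 with quantile normalization, -0.032 with median centring and -0.092 with the GAPDH covariate, and leaving out 1 array gave -0.026 to 0.311. With the GAPDH covariate HEMGN became -0.080 in Noggin+RA against Tris+DMSO, and HBAD Gga.2902.1.S1_s_at -0.088 in the average Noggin effect. In Tris+RA against Tris+DMSO, leaving out 1 array gave -0.220 to 0.223 for ANK1 Gga.757.1.S1_at, -0.043 to 0.568 for HBBR and -0.408 to 0.306 for HEMGN. The cause of these changes was not tested. Dim ANK1 and TAL1 probe sets lay near or below background, which limits what they can show.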
